A study of Homo sapiens with 6 samples.

Results

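The thioredoxin and peroxiredoxin systems are represented here by 10 genes chosen by symbol, out of 26485 gene symbols in the count table. They are the thioredoxins TXN and TXN2, the thioredoxin reductases TXNRD1 and TXNRD2, the sulfiredoxin SRXN1, and the peroxiredoxins PRDX1, PRDX2, PRDX3, PRDX5 and PRDX6. Each symbol matched 1 row, and all 10 were among the 12854 genes that passed the filter on low counts. THP1 cells, a human acute monocytic leukemia line grown in RPMI medium with fetal bovine serum, were exposed for 6 h to withaferin A (WFA), a steroidal lactone, or to its vehicle DMSO. RNA was sequenced from 3 independent experiments, which gave 3 DMSO and 3 WFA libraries. The study's methods give the WFA concentration as 1 μM and the sample labels as 1 mM, and the former is used here. A single cell line stands for the disease in both groups.

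The thioredoxin system carries electrons from NADPH through a thioredoxin reductase, a selenoprotein, to thioredoxin, a small protein that reduces disulfides in other proteins. Peroxiredoxins are abundant peroxidases that break down hydrogen peroxide on a reactive cysteine, and most of them are reduced again by thioredoxin. When that cysteine is oxidized too far, sulfiredoxin restores it in some peroxiredoxins but not in all. Cytosol and mitochondria hold separate sets, with TXN, TXNRD1, PRDX1, PRDX2 and PRDX6 mainly cytosolic, TXN2, TXNRD2 and PRDX3 mitochondrial, and PRDX5 found in several compartments. In many cell types TXNRD1, SRXN1, TXN and PRDX1 are known targets of NRF2, a transcription factor that binds antioxidant response elements.

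Promoter sequence is shown for TXNRD1 and SRXN1 because these were the 2 genes with the largest changes. Windows of 300 bases, most of them before a RefSeq start (GRCh38.p14), were matched for 7 of the 10 genes, as 11 windows. TXN2, PRDX1 and PRDX6 were without one. The antioxidant response element was searched as TGACNNNGC on both strands and was present in 2 of the 11 windows, both of TXNRD1, against 13.3% of 34796 distinct windows of the same length. In the windows below, printed 5′ to 3′ on the strand of the gene, capitals mark each match of that element on either strand. The first lies at chr12:104215529-104215828, the second at chr12:104286782-104287081 and the third at chr20:653151-653450 on the minus strand.
TXNRD1, upstream start: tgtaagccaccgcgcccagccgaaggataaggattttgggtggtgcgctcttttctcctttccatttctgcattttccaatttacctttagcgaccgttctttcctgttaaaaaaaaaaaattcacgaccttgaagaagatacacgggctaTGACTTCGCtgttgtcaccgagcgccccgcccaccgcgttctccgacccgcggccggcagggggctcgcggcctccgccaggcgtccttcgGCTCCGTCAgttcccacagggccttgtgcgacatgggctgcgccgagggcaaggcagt
TXNRD1, downstream start: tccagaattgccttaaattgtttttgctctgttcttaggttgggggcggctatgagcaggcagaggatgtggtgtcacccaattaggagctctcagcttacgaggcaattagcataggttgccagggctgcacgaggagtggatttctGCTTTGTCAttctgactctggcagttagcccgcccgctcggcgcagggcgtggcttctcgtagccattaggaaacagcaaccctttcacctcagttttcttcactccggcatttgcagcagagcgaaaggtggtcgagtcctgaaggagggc
SRXN1: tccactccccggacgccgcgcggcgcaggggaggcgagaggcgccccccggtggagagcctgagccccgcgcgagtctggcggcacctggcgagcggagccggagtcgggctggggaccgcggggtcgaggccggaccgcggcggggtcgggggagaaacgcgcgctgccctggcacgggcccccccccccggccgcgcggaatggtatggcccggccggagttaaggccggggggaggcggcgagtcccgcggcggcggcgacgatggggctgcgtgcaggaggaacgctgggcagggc
The upstream TXNRD1 window held 2 matches, the first from 99 to 91 bases before the start on the strand of the gene, and the second on the other strand, beginning 8 bases before it. The downstream window held 1 match, on the other strand, from 102 to 94 bases before its start. No match was found in the SRXN1 window, which says only that these letters are not in those 300 bases. None of the 11 windows held the heat shock element pairs TTCNNGAA or GAANNTTC (13.5% of all windows), the ATF4 element TGATGNAA (3.63%) or the AP-1 element TGANTCA (7.73%), of which the last can overlap the antioxidant response element. These matches are letters in a sequence and no binding was measured.

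Total counts ranged from 11006035 to 13872810 per library. All 8 monocytic markers examined (CD14, LYZ, CD33, ITGAM, CSF1R, SPI1, CD68 and FCGR1A) were above 1 CPM (TMM-scaled counts per unit of library size), and summed to between 2388 and 2913 CPM in DMSO and between 2162 and 2930 CPM in WFA libraries. With WFA 1 of the 8 was higher and 4 were lower (edgeR adjusted p under 0.05). Markers of T cells, B cells and epithelial cells summed to at most 1.85 CPM in any library, and all 3 erythroid markers were at 0. Fibroblast markers summed to between 1.48 and 1.66 CPM with DMSO and between 10.0 and 13.8 CPM with WFA. Of these 3 markers COL1A1 carried the rise, from 0.453 to 9.95 CPM on average, PDGFRB did not pass the test (1.12 and 1.43 CPM, edgeR adjusted p = 0.397) and COL1A2 was at 0 in every library, and the part of this difference in the results was not tested. Replicate numbers pair the libraries by experiment, and the fit with the replicate as a block is given where it changes a call and for PRDX6. In that fit edgeR estimated the same spread for all genes of like abundance, with no weight on the spread of the single gene (an infinite prior degrees of freedom, against 10.8 without the block). DESeq2 with the same block was therefore added after the data were seen.

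WFA raised the cytosolic reductase, sulfiredoxin and PRDX1 transcripts more than 2-fold, left TXN2 and TXNRD2 without a detected change, and lowered PRDX3. By the quasi-likelihood test of edgeR, adjusted over all tested genes by Benjamini-Hochberg, 6 of the 10 transcripts were higher and 1 was lower at an adjusted p-value under 0.05, and 3 did not pass. Across all tested genes 25.8% were higher and 24.7% lower by the same rule. The 10 genes were chosen with earlier results of these data known. Over 2-fold, 3 of the 10 were higher (SRXN1, TXNRD1 and PRDX1), against 8.11% of all tested genes. By edgeR 0 of the 10 were over 2-fold lower (0 also at an unadjusted p-value under 0.05, and 0 by DESeq2), against 5.2% of all. The median log2 fold change of the 10 was 0.33, beside 0.02 over all tested genes. Pair by pair it came to 0.20, 0.28 and 0.52 for experiments 1, 2 and 3, and to 0.20 when DMSO replicate 3 was left out. In whole-culture RNA, fewer cells that carry a transcript and less of it per cell cannot be told apart.

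**Figure D1:**
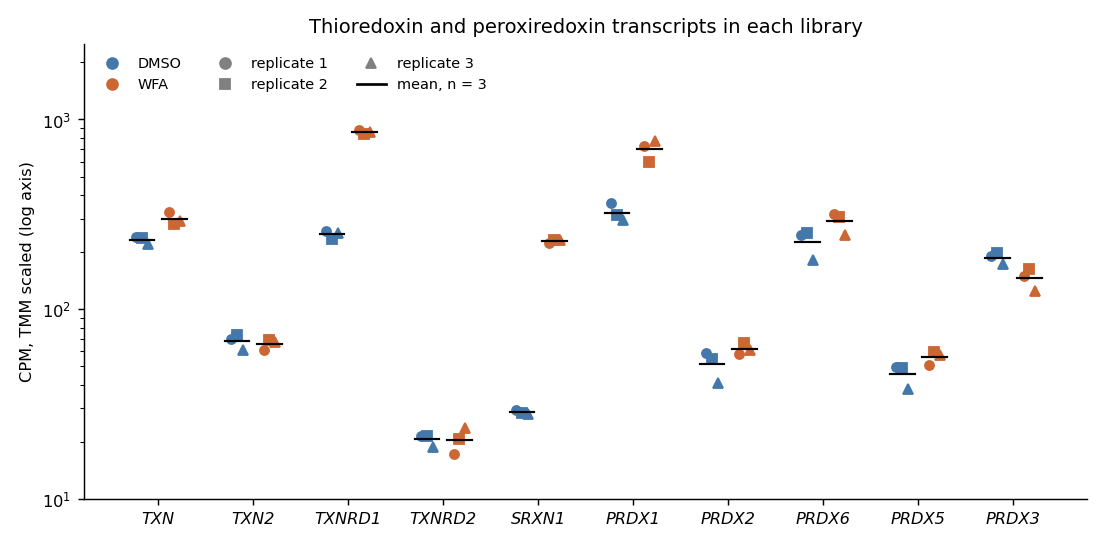
Expression of the 10 transcripts in each library, as CPM scaled with TMM factors on a log axis, with DMSO in blue, WFA in orange, 1 symbol per replicate and a line at the mean of 3. The WFA points of SRXN1 (224 to 231 CPM) and TXNRD1 (842 to 878 CPM) lie far above their DMSO points, whereas those of TXN2 and TXNRD2 overlap.

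**Figure D2:**
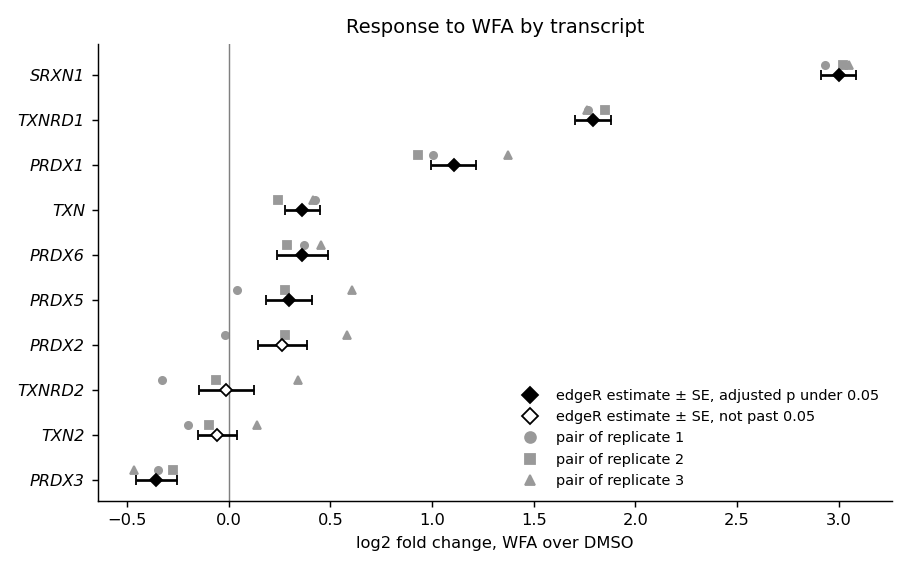
Log2 fold change of WFA over DMSO for each transcript, with the edgeR estimate and its standard error (diamonds, filled where the adjusted p-value was under 0.05) and the values of the 3 replicate pairs in grey. SRXN1 lies at 3.0, TXNRD1 at 1.79 and PRDX1 at 1.11, and PRDX3 at -0.36 is the lowest.

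SRXN1 (chr20:646615-653370 on the minus strand, GENCODE 29 on GRCh38), which repairs some over-oxidized peroxiredoxins, had the largest change of the 10. It had 29.3, 28.5 and 27.9 CPM in DMSO replicates 1, 2 and 3, and 224, 231 and 231 CPM in the WFA replicates. The lowest WFA library was thus far above the highest DMSO library, and replicates of a group differed little. Mean expression went from 28.6 ± 0.677 to 229 ± 4.4 CPM (SD, n = 3 each), an 8.0-fold rise and 3.0 ± 0.09 on the log2 scale (SE, adjusted p = 4.33e-12 by edgeR). By size of the log2 fold change it was number 75 from the top among 12854 tested genes. A GENCODE gene model on the same strand, AL121758.1, shares 2292 of the exon bases of SRXN1 (85.0%). It is not a row of the table used here.

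TXNRD1 (chr12:104215779-104350305, plus strand) encodes the cytosolic reductase that supplies thioredoxin with electrons. With DMSO it had 258, 233 and 254 CPM, and with WFA 878, 842 and 859 CPM. The groups were separated by a gap many times wider than either group's own range. The means were 248 ± 13.2 and 860 ± 17.9 CPM (SD, n = 3 each), a 3.46-fold rise and 1.79 ± 0.09 on the log2 scale (SE, adjusted p = 9.82e-10 by edgeR), number 321 from the top. TXNRD2 (chr22:19875517-19941992, minus strand), its mitochondrial counterpart, had 21.5, 21.6 and 18.7 CPM with DMSO and 17.2, 20.6 and 23.6 CPM with WFA. Here the groups overlapped, and the highest and the lowest of the 6 values were both WFA libraries. The log2 fold change of TXNRD2 was -0.01 ± 0.13 (SE, adjusted p = 0.950 by edgeR).

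TXN (chr9:110243811-110256640, minus strand), the cytosolic thioredoxin, also rose. It had 241, 238 and 219 CPM with DMSO and 323, 282 and 292 CPM with WFA, without overlap. The log2 fold change was 0.36 ± 0.09 (SE, adjusted p = 0.00307 by edgeR), or 1.29-fold. TXN2 (chr22:36467036-36482030, minus strand), the mitochondrial thioredoxin, had 70.0, 73.3 and 60.7 CPM with DMSO and 60.9, 68.5 and 66.8 CPM with WFA. All WFA values of TXN2 lay within the range of the DMSO values, and the log2 fold change was -0.06 ± 0.10 (SE, adjusted p = 0.649 by edgeR). Processed copies of TXN are common in the genome, with 7 named TXN pseudogenes in GENCODE 29, and how reads with several matches were counted is not given in the sources used here.

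Among the peroxiredoxins, PRDX1 (chr1:45511036-45523047, minus strand), a cytosolic enzyme reduced by thioredoxin, had the largest rise. With DMSO it had 362, 312 and 295 CPM, and with WFA 726, 595 and 766 CPM. Each WFA library was above each DMSO library, although the WFA libraries varied among themselves. The means were 323 ± 34.8 and 696 ± 89.7 CPM (SD, n = 3 each), a 2.15-fold rise and 1.11 ± 0.11 on the log2 scale (SE, adjusted p = 1.27e-06 by edgeR). On the opposite strand MMACHC shares 379 exon bases with PRDX1, 30.3% of those of PRDX1. Over the 6 libraries MMACHC had 1400 counts and PRDX1 had 37149. The library kit does not mark strand, so reads from the shared bases cannot be assigned with certainty.

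PRDX3 (chr10:119167703-119178833, minus strand), the mitochondrial peroxiredoxin, went the other way. It had 191, 197 and 172 CPM with DMSO and 150, 163 and 125 CPM with WFA, again without overlap. The log2 fold change was -0.36 ± 0.10 (SE, adjusted p = 0.00877 by edgeR), a level 0.781 times that with DMSO. It was below 0 in each of the 3 pairs, at -0.35, -0.27 and -0.47. GENCODE 29 names 4 pseudogenes each of PRDX3 and PRDX2 and 1 of PRDX1.

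The remaining peroxiredoxins had smaller log2 fold changes than PRDX1, and that of PRDX6 was about as large in size as that of PRDX3. PRDX6 (chr1:173477266-173488807, plus strand), which uses glutathione rather than thioredoxin, had 248, 251 and 181 CPM with DMSO and 319, 306 and 248 CPM with WFA. Its lowest WFA value, in replicate 3, lay just below the DMSO values of replicates 1 and 2. The log2 fold change was 0.36 ± 0.13 (SE, adjusted p = 0.0264 by edgeR). In the 3 pairs it was 0.37, 0.28 and 0.45. With the replicate as a block it passed in edgeR (0.37, adjusted p = 1.4e-05) and in DESeq2 (0.35, adjusted p = 0.000108). Without the block, the edgeR call was lost when DMSO replicate 3 (0.22, edgeR adjusted p = 0.122), WFA replicate 1 (0.29, adjusted p = 0.112) or WFA replicate 2 (0.32, adjusted p = 0.0695) was left out. It was also lost when libraries were scaled by total counts (0.28, edgeR adjusted p = 0.0666).

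PRDX5 (chr11:64318088-64321811, plus strand), which is found in mitochondria, peroxisomes and cytosol, had 49.4, 48.9 and 37.8 CPM with DMSO and 50.7, 59.3 and 57.5 CPM with WFA. The groups did not overlap, but WFA replicate 1 was barely above DMSO replicate 1. Its log2 fold change was 0.30 ± 0.11 (SE, adjusted p = 0.0396 by edgeR). Leaving out DMSO replicate 3 (0.18, edgeR adjusted p = 0.184), WFA replicate 2 (0.25, adjusted p = 0.115) or WFA replicate 3 (0.28, adjusted p = 0.0924) ended this call, as did DESeq2 (0.29, adjusted p = 0.0527) and total counts (0.22, adjusted p = 0.122).

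PRDX2 (chr19:12796820-12801859, minus strand), a cytosolic enzyme closely related to PRDX1, had 58.9, 54.6 and 40.7 CPM with DMSO and 58.2, 66.0 and 61.0 CPM with WFA. One DMSO library reached into the WFA range. The log2 fold change of 0.26 (standard error 0.12) did not pass the threshold (edgeR adjusted p = 0.0846). With the replicate as a block it did, at 0.27 ± 0.09 (SE, adjusted p = 0.00617 by edgeR), and so it did without DMSO replicate 1, at 0.37 (adjusted p = 0.0336). With the block in DESeq2 it did not pass (0.26, adjusted p = 0.0814). An antisense gene model, AC018761.2, covers 296 of its exon bases (30.0%) and is not a row of the table used here.

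Of the 10 transcripts, 6 had groups that did not overlap, as did 58.1% of all tested genes. DMSO replicate 3 was the lowest of the DMSO libraries for 9 of the 10, TXNRD1 being the exception. The same library was lowest for 36.5% of all tested genes. The differences within replicate pairs were narrow for SRXN1, between 2.93 and 3.05 on the log2 scale, and for TXNRD1, between 1.76 and 1.85. They were wider for TXNRD2, PRDX2 and PRDX5. For TXNRD2 they ran from -0.33 in the pair of replicate 1 to 0.34 in that of replicate 3, for PRDX2 from -0.02 to 0.58 and for PRDX5 from 0.04 to 0.60 in the same pairs.

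Ratios of counts within a library do not depend on how libraries are scaled, and were used to compare cytosolic with mitochondrial forms. The log2 ratio of TXNRD1 to TXNRD2 counts was 3.58, 3.44 and 3.76 in DMSO replicates 1, 2 and 3 and 5.68, 5.35 and 5.18 in the WFA replicates. The difference of 1.81 corresponds to a change from 12.1 to 42.4 TXNRD1 counts per TXNRD2 count. For TXN to TXN2 the log2 ratio was 1.78, 1.70 and 1.85 with DMSO and 2.41, 2.04 and 2.13 with WFA, a smaller difference of 0.41 that was also without overlap. For both ratios p was 0.1 (exact permutation test, two-sided), the smallest value that 3 libraries against 3 allow. Taken as pairs, all 3 differences of each ratio were above 0, and an exact sign-flip test gave p = 0.25, its smallest possible value with 3 pairs.

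Further ratios were chosen after the values were seen and are given as a description. TXNRD1 and TXN had nearly equal counts with DMSO, 1.07 TXNRD1 counts per TXN count, and 2.88 with WFA. Their log2 ratio went from 0.09 ± 0.12 to 1.53 ± 0.07 (SD, n = 3 each). Counts are not scaled by length, and TXNRD1 has 4608 exon bases against 869 of TXN. The mitochondrial ratio of TXNRD2 to TXN2 was -1.72 ± 0.04 with DMSO and -1.69 ± 0.17 with WFA (SD, n = 3 each), with overlapping groups. SRXN1 had 0.0887 counts per PRDX1 count with DMSO and 0.331 with WFA, with groups that did not overlap.

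**Figure D3:**
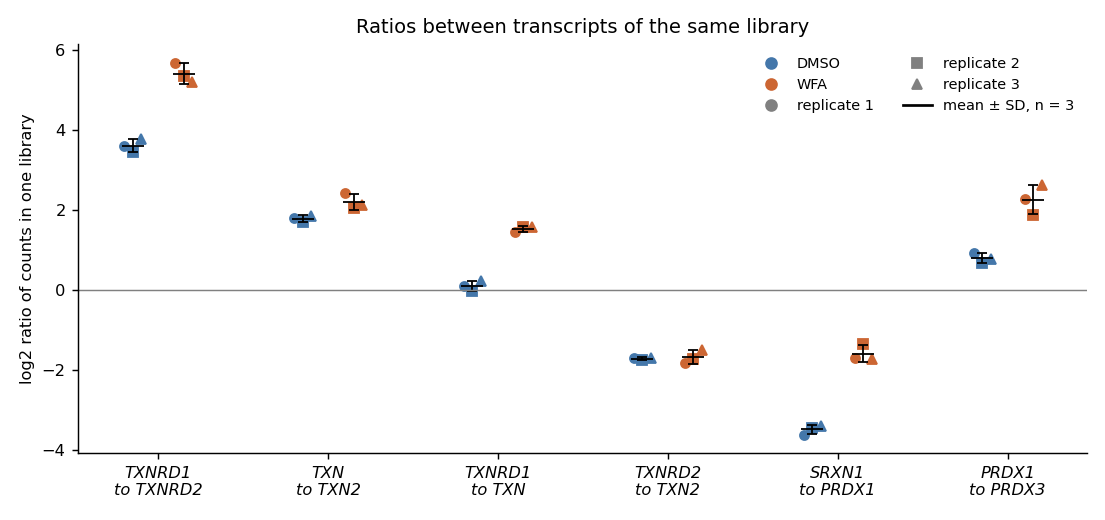
Log2 ratios of counts between pairs of transcripts in the same library, with 1 symbol per replicate and the mean ± SD of 3 libraries in black. The ratio of TXNRD1 to TXNRD2 moved from 3.59 to 5.40 on average, whereas that of TXNRD2 to TXN2 stayed between -1.83 and -1.50 in the 3 WFA libraries, around the DMSO values near -1.72.

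The make-up of the peroxiredoxin counts shifted towards PRDX1. Of the summed counts of the 5 peroxiredoxins, PRDX1 took 39.8%, 36.2% and 40.6% in DMSO replicates 1, 2 and 3 and 55.7%, 50.03% and 61.0% in the WFA replicates. The mean difference was 16.7 percentage points (exact two-sided permutation p = 0.1, the smallest possible for n = 3 against 3, and 0.25 by the exact sign-flip test over the 3 pairs). The share of PRDX3 went from 22.5 ± 1.35% to 11.7 ± 1.89% (SD, n = 3 each). The shares of PRDX2 and PRDX5 did not overlap between the groups either, at 4.96% and 4.48% on average against 6.13% and 5.43%. The share of PRDX6 was 27.1 ± 2.11% with DMSO and 23.3 ± 3.19% with WFA (SD, n = 3 each), with overlapping groups (exact permutation p = 0.2). These are shares of one sum, so a rise of PRDX1 alone would lower the others. Together the 10 transcripts took 0.147 ± 0.00982% of all counts with DMSO and 0.264 ± 0.00762% with WFA (SD, n = 3 each).

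**Figure D4:**
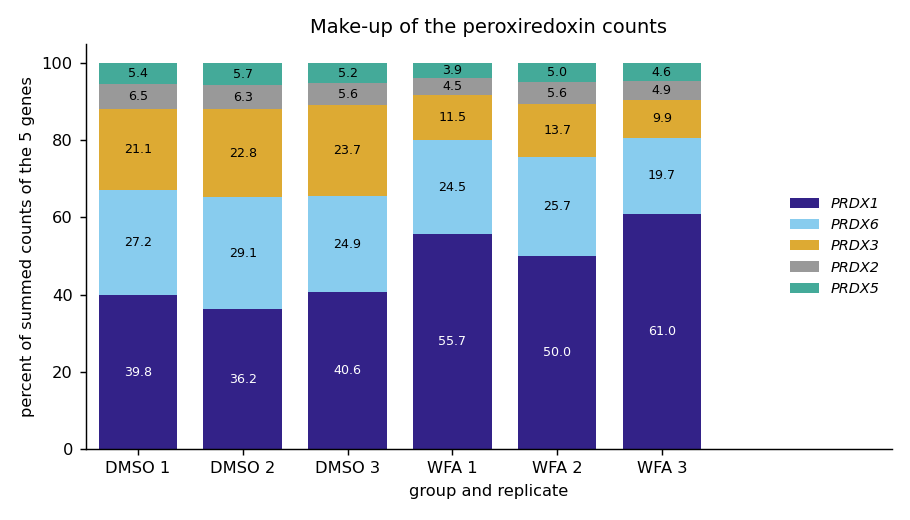
Percent of the summed counts of PRDX1, PRDX6, PRDX3, PRDX2 and PRDX5 that each gene took, with 1 bar per library. The PRDX1 segment is between 36.2% and 40.6% in the DMSO bars and between 50.03% and 61.0% in the WFA bars.

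Counts, as in the ratios and shares above, also depend on gene length, so levels of different genes were compared per kilobase of exon. The unit was TMM-scaled CPM per kilobase over exons of RefSeq-matched GENCODE 29 transcripts (RPKM). In DMSO libraries TXN (268 ± 13.4 RPKM) and PRDX1 (258 ± 27.8 RPKM) were the most abundant, and their values overlapped. PRDX6 (129 ± 22.6 RPKM) and PRDX3 (117 ± 8.02 RPKM) came next, and also overlapped each other. TXNRD1 (53.9 ± 2.86 RPKM), PRDX2 (52.1 ± 9.63 RPKM) and PRDX5 (50.8 ± 7.31 RPKM) could not be placed in order beyond their spread. Below them were TXN2 (39.2 ± 3.75 RPKM), SRXN1 (10.6 ± 0.251 RPKM) and TXNRD2 (4.39 ± 0.354 RPKM), of which SRXN1 and TXNRD2 were separate from all genes above them (SD, n = 3 for each of the 10). The highest TXN2 library (42.2 RPKM) lay above the lowest of PRDX2 (41.3 RPKM) and just under the lowest of PRDX5 (42.4 RPKM).

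With WFA the order was different. PRDX1 (556 ± 71.7 RPKM) led, TXN (344 ± 24.8 RPKM) followed, and TXNRD1 (187 ± 3.88 RPKM) had passed PRDX6 (166 ± 21.8 RPKM) and PRDX3 (91.7 ± 12.2 RPKM). SRXN1, at 84.8 ± 1.63 RPKM, overlapped PRDX3 and lay above PRDX2 (62.6 ± 4.0 RPKM) and PRDX5 (62.5 ± 5.05 RPKM), which overlapped each other. TXN2 (37.7 ± 2.30 RPKM) and TXNRD2 (4.37 ± 0.692 RPKM) remained at the end of the list (SD, n = 3 for each). The length chosen matters for genes with several transcripts. With the median length of coding transcripts instead, PRDX1 stood first with DMSO, at 407 RPKM against 268 RPKM for TXN. PRDX5 then stood above SRXN1 with WFA, at 93.7 against 84.8 RPKM, and TXN2 just above PRDX2 with DMSO, at 53.1 against 52.1 RPKM. By that length TXNRD1 already stood above PRDX3 with DMSO, at 128 against 117 RPKM on average, and just under PRDX6 (129 RPKM). With WFA it reached 445 RPKM and stood second, after PRDX1. TXNRD2 was last in both groups under either length.

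The transcripts most like SRXN1 over the 6 libraries, by Pearson's r of log2 CPM among all tested genes, were HMOX1, DNAJA4 and OSGIN1, each with r = 0.999. Those most like TXNRD1 were FBXO30, KLHL6 and SAT2, also at 0.999. The 6 points share the 2 groups, so any transcript with a large and even change comes close to this value, and 232 genes had r over 0.99 with SRXN1 and 231 with TXNRD1. HMOX1 rose by 8.51 on the log2 scale and FBXO30 by 1.38, which shows that likeness in this measure is not likeness in size.

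Other genes of the pathway were counted from lists written from general knowledge, with earlier results of these data known. Of 16 thioredoxin-fold proteins and regulators, 15 were tested, and 4 were higher, 3 were lower and 8 did not pass (edgeR adjusted p under 0.05), with a median log2 fold change of 0.00. Those over 2-fold were TXNIP, SESN2 and GLRX. TXNIP, which binds and inhibits thioredoxin, had 573, 601 and 580 CPM with DMSO and 228, 265 and 206 CPM with WFA. Every WFA library was below every DMSO library, with a log2 fold change of -1.33 ± 0.10 (SE, adjusted p = 6.44e-08 by edgeR). SESN2, a stress-induced sestrin, had 10.6, 9.79 and 11.1 CPM with DMSO and 28.3, 37.0 and 54.0 CPM with WFA. Its log2 fold change was 1.92 ± 0.19 (SE, adjusted p = 1.18e-06 by edgeR), and the WFA libraries were spread widely. GLRX, the cytosolic glutaredoxin, which reduces disulfides with glutathione, had a log2 fold change of 1.05 ± 0.12 (SE, adjusted p = 6.23e-06 by edgeR).

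The reductase and peroxiredoxin outside the set of 10 were examined for completeness, a choice made after their values were seen. PRDX4, the peroxiredoxin of the endoplasmic reticulum, had 90.3, 86.2 and 82.8 CPM with DMSO and 79.6, 73.9 and 72.6 CPM with WFA. These values did not overlap, but the log2 fold change of -0.20 did not pass the threshold (edgeR adjusted p = 0.0634), and passed with the replicate block in edgeR (-0.20, adjusted p = 0.0375) but not in DESeq2 (-0.21, adjusted p = 0.0719). TXNRD3, a reductase best known from testis, was low, between 7.11 and 8.75 CPM with DMSO and between 4.51 and 5.77 CPM with WFA. It fell by 0.58 on the log2 scale (standard error 0.18, edgeR adjusted p = 0.0139).

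Among 9 genes listed as thioredoxin clients or as subunits of client enzymes, 4 were lower and 5 did not pass. By edgeR 0 were higher (2 at an unadjusted p-value under 0.05, and 0 by DESeq2). With the replicate block in edgeR 2 were higher, MSRB1 (0.25, adjusted p = 0.0269) and MSRB3 (0.42, adjusted p = 0.0297), which repair oxidized methionine. In that fit 5 were lower, with the addition of RRM2B (-0.24, edgeR adjusted p = 0.0119), a stress-induced subunit of ribonucleotide reductase. With the block in DESeq2 none of these 3 passed, with adjusted p-values of 0.127 for MSRB1, 0.229 for MSRB3 and 0.0626 for RRM2B. The count was also 2 without WFA replicate 3 and 1 without DMSO replicate 1. RRM2, the small subunit of ribonucleotide reductase, had a log2 fold change of -1.54 ± 0.14 (SE, adjusted p = 4.38e-07 by edgeR). RRM1, another subunit of that enzyme, had -0.45 ± 0.10 (SE, adjusted p = 0.00136 by edgeR). APEX1, a DNA repair enzyme that also reduces transcription factors, had -1.18 ± 0.11 (SE, adjusted p = 8.43e-07 by edgeR). MAP3K5, the kinase ASK1, which thioredoxin holds inactive, had -0.96 ± 0.10 (SE, adjusted p = 1.82e-06 by edgeR). The median of the 9 was -0.24.

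Thioredoxin reductases need selenocysteine, an amino acid inserted by a dedicated machinery. Of its 7 tested genes 1 was higher, 3 were lower and 3 did not pass, and none of the changes reached 2-fold. SECISBP2, which binds the element in selenoprotein messages that directs the insertion, had a log2 fold change of -0.39 ± 0.09 (SE, adjusted p = 0.00168 by edgeR). SEPHS2, which makes the selenium donor, had -0.33 ± 0.08 (SE, adjusted p = 0.00310 by edgeR), and TRNAU1AP, which associates with the selenocysteine tRNA, had 0.47 ± 0.11 (SE, adjusted p = 0.00280 by edgeR).

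Among the genes listed as other selenoproteins, those that passed the test were higher. The list does not hold all selenoproteins. SEPHS2 and MSRB1 are selenoproteins too and were counted on other lists. SEPHS2 was lower (-0.33, edgeR adjusted p = 0.00310), and MSRB1 did not pass without the block (0.25, edgeR adjusted p = 0.0881). Of the thioredoxin reductases, counted elsewhere, TXNRD1 was higher, TXNRD3 was lower (-0.58, edgeR adjusted p = 0.0139) and TXNRD2 did not pass. Of 11 on the list 8 were tested (SELENOM and SELENOP did not pass the filter on low counts and SELENOF was not matched by symbol), and 4 of these were higher and 4 did not pass, with a median log2 fold change of 0.42. With the replicate block 5 were higher, as SELENOS, a protein of the endoplasmic reticulum listed as VIMP, passed in edgeR (0.25, adjusted p = 0.0238) but not in DESeq2 (0.24, adjusted p = 0.127). By edgeR 0 were lower (0 at an unadjusted p-value under 0.05, and 0 by DESeq2). SELENOW, a small selenoprotein listed under its older symbol SEPW1, had 24.3, 23.5 and 18.4 CPM with DMSO and 45.3, 54.1 and 58.2 CPM with WFA. That gave a log2 fold change of 1.25 ± 0.13 (SE, adjusted p = 1.43e-06 by edgeR). SELENOI, an enzyme of phospholipid synthesis listed as EPT1, had 0.88 ± 0.09 (SE, adjusted p = 1.47e-06 by edgeR), and SELENOK, of the endoplasmic reticulum and listed as SELK, had 0.58 ± 0.11 (SE, adjusted p = 0.000354 by edgeR). The counts of these 4 lists stand beside the 25.8% of all tested genes that were higher and the 24.7% that were lower, and nothing was tested against that background. With the replicate block in edgeR more of the 12854 tested genes passed, 3877 higher and 3708 lower, against 3311 and 3178 without it.

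**Figure D5:**
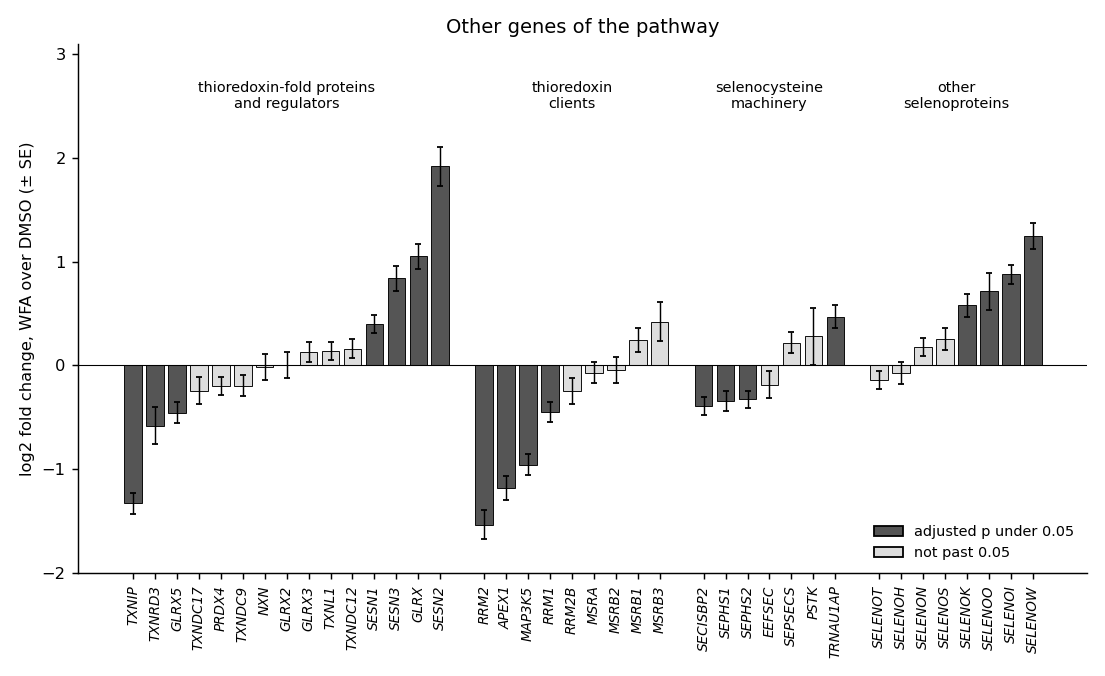
Log2 fold changes of WFA over DMSO with standard errors for tested genes of the 4 other lists, in dark bars where the edgeR adjusted p-value was under 0.05. TXNIP and RRM2 reach -1.33 and -1.54, and SESN2 and SELENOW reach 1.92 and 1.25.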

How the data were processed

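RNA from 3 DMSO and 3 WFA cultures of THP1 cells was extracted as total RNA and made into Illumina TruSeq RNA v2 libraries. The authors deposited raw counts of reads per gene symbol, without normalization. The submitters' processing notes name bcl2fastq 2.19, Trimmomatic, Bowtie2, Picard, featureCounts and DESeq2 on hg38, with no settings for strand or reads with several matches. The deposited table also holds 6 columns of scaled counts and the authors' own comparison (fold changes, p-values and dispersions), which were not used. Each library held between 11006035 and 13872810 counts in total.

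Counts were fitted with edgeR 4.0.16 in R 4.3.3, with TMM scaling, filterByExpr (minimum count 10), the quasi-likelihood test without a block and Benjamini-Hochberg adjustment over 12854 genes at 0.05. Log2 CPM for likeness used a prior count of 2. The fits were run on simulated counts with the same spread for every gene, 200 changed genes and no replicate effect. Such counts cannot show how the fits with a replicate block behave on these data. Libraries of a group differed by more than sampling noise (chi-square per gene between 5.92 and 10.9). The labels give same-numbered libraries a shared date code, and their deviations correlated (0.22, 0.33 and 0.25 for replicates 1, 2 and 3), so the numbers were taken as pairs. Gene models are from GENCODE 29 (GRCh38) and promoter windows from RefSeq. Lists of other genes name every gene over 2-fold and the 3 smallest p-values past the threshold. The 10 genes and all lists were chosen with earlier results of these data known. Ratios and shares were compared by an exact permutation test and, as pairs, by an exact sign-flip test. Alternatives were the replicate block (also, added after the data were seen, in DESeq2 and limma-voom 3.58.1), DESeq2 1.42.0, other scalings, no filter, a robust fit, glmTreat against 1.2-fold and leaving out each library. P-values of the main fit rest on the spread of libraries within a group, not on that of the paired differences. That spread was estimated largely from other genes (10.8 prior against 4 residual degrees of freedom). With the block in edgeR or limma-voom the spread of the single gene had no weight.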

Additional observations from a re-analysis of the deposited data

How the results depend on the processing

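The count of 6 higher among the 10 transcripts stayed between 4 and 7 in 13 of 14 alternative settings, and was 3 with glmTreat, which tests against a change of 1.2-fold and by construction passes fewer genes. Over the fits without 1 library it ranged from 4 to 7, and the count over 2-fold was 3 in all 14 settings. The single lower transcript, PRDX3, was lost with glmTreat (0 lower, adjusted p = 0.154), which also left 0 of the 3 lower genes of the selenocysteine machinery and 2115 in place of 3178 lower genes overall. Total counts in place of TMM gave 6 in place of 3 lower thioredoxin-fold proteins and regulators, and 1 in place of 0 lower genes on the list of other selenoproteins. The former count ranged from 2 to 6 with each library left out, and was 6 without WFA replicate 1. The count of higher thioredoxin clients, 0 as reported, was 2 with the replicate block and from 0 to 2 when a single library was dropped. Over all tested genes total counts gave 3875 lower and 2763 higher, in place of 3178 and 3311. The median log2 fold change of all tested genes was then -0.06, against 0.02 as reported. The cause of the changes in these counts was not tested, apart from glmTreat. The log2 fold change of TXNRD2 was between -0.12 and 0.10 without 1 library, and lay above 0 without DMSO replicate 1, DMSO replicate 2 or WFA replicate 1. SRXN1 stayed between 2.92 and 3.02, TXNRD1 between 1.71 and 1.82 and PRDX1 between 1.02 and 1.21 over these 14 settings. Of the 10 transcripts, the replicate block in edgeR changed the call of PRDX2 alone. Among the other lists it added PRDX4, RRM2B, MSRB1, MSRB3 and SELENOS. These 6 calls were also made by limma-voom with the block (2 clients higher), which had an infinite prior degrees of freedom too, and none was made by DESeq2 with the block, in which PRDX5 was lost (0.29, adjusted p = 0.0537). The paired differences of the ratios and of the PRDX1 share equal the unpaired ones by construction. Another gene length, chosen after seeing the data, changed the place of 7 of the 10 in the DMSO order.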
